A study of Mus musculus with 9 samples.

Results

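The interferon-stimulated genes described here are 37 named genes whose rows were taken from the deposited gene count table by gene name, out of 54532 genes in that table. All 37 names were found, each in 1 row. Expression was measured by RNA sequencing in the hypothalamus of male pups of ICR mice, an outbred stock of wild-type animals, on postnatal day 21, in 3 groups of 3 libraries. HA pups were born to dams fed a diet high in fat and sucrose (HFHS), with 45% of energy from fat, and received 4-PBA, known as a chemical chaperone and an inhibitor of histone deacetylases. HP pups were born to dams fed that same diet and received PBS, a saline buffer. LP pups were born to dams fed a low-fat diet, with 10% of energy from fat, and received PBS. All pups were thus injected daily, on postnatal days 4 to 16. The dams entered the diet at 5 weeks of age, were mated after 5 weeks on it and kept it until the pups were taken, and litters held 10 pups. Whether litters were shared within a group is not given in the labels, and p-values therefore speak only for the spread among these 9 libraries, some of which may be technical.

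Interferons are secreted proteins that bind receptors on the cell surface and, through Janus kinases, activate STAT transcription factors. Type I interferons act through a complex with STAT2 and IRF9 that binds the interferon-stimulated response element (ISRE), and interferon gamma acts on the gamma-activated site (GAS). The genes switched on in this way encode sensors of foreign nucleic acid, inhibitors of virus entry, translation and release, and regulators of the response itself. In brain, microglia, astrocytes, endothelium and the border tissue of the meninges can all express them.

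The libraries held 18226924 to 21823961 counts each. The 14 markers of hypothalamic neurons, such as Pomc and Avp, were present in every library, with Pomc at 48.3 to 87.5 CPM (counts scaled to library size). Libraries of a group differed in markers of neighbouring tissue. The 10 markers of meningeal fibroblasts, with none at 0, summed to 95.8, 113 and 1180.5 CPM in HA replicates 1, 2 and 3, to 96.4, 130 and 175 CPM in HP, and to 88.7, 105 and 611 CPM in LP. The 7 markers of striatal neurons, with none at 0, summed to 213 to 228 CPM in HA, 216 to 243 CPM in HP and 229 to 495 CPM in LP, with LP replicates 1 and 2 highest. Library titles carry a code of unstated meaning. It is Hg43 for HA and HP replicates 1 and 2, Hg13 for HA and HP replicate 3, Lg63 for LP replicates 2 and 3 and Lg42 for LP replicate 1. No code occurs under both diets, and in any comparison with LP the code cannot be told apart from the diet.

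Promoter windows from RefSeq (build GRCm38.p6, 250 bases before to 50 after the start) were matched by symbol for 27 of the 37 genes. The ISRE core, searched on both strands as the letters GAAA, any 2 bases and GAAA again, with overlapping matches counted, was present for 17 of these 27 genes (62.96%), against 1079 of 27025 genes with a window (3.993%). The GAS, searched as TTCNNNGAA, was present for 9 of the 27 (33.33%), against 2582 of all (9.554%). The windows of Isg15, Ifit1 and Oas1a are printed to show how such matches are arranged in genes of 3 different roles, and that of Irf7 because it has no match of either motif while the gene has the smallest p in HP against LP among the 35 members tested. They are written 5′ to 3′ on the gene's strand, with the ISRE core matches in capitals.

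Isg15, chr4:156200769-156201068, minus strand: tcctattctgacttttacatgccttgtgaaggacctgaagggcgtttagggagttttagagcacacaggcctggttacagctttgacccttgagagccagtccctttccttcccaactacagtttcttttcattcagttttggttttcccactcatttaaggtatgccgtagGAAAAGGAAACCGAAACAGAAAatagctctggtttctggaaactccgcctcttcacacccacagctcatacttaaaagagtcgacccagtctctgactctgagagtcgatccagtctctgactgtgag

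Ifit1, chr19:34640639-34640938, plus strand: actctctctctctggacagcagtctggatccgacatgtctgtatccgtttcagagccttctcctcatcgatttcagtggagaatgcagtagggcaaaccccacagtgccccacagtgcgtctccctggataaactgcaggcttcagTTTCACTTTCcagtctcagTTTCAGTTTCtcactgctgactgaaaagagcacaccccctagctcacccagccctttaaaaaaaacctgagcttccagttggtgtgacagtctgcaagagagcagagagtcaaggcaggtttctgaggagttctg

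Oas1a, chr5:120907476-120907775, minus strand: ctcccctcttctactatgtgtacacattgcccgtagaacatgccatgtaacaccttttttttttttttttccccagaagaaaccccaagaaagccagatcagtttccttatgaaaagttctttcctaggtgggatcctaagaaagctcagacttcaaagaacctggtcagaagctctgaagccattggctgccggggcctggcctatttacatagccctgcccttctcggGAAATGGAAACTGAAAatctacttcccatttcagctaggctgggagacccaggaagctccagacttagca

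Irf7, chr7:141266375-141266674, minus strand: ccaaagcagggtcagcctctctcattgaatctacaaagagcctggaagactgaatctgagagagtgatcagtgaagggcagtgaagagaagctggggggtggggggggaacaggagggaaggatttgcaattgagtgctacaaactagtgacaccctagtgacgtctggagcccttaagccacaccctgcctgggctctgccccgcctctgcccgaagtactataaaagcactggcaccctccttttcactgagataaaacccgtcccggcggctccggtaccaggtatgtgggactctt

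In Isg15 there were 3 overlapping matches, which begin 78, 72 and 66 bases upstream of the start. In Ifit1 there were 2 separate matches on the other strand, 104 and 85 bases upstream. In Oas1a there were 2 overlapping matches, 20 and 14 bases upstream. A match is a description of letters and not a measured site, and the window of Irf7 says only that these letters are not in it.

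Most of the 37 genes were counted sparsely. The mean count per library lay between 4.67 for Zbp1 and 497 for Ifi27, and 25 of the 37 had a mean under 100 counts. Per length, in the deposited FPKM values averaged over the 9 libraries, Ifitm3 (17.5 FPKM) and Ifi27 (17.4 FPKM) were highest, followed by Lgals3bp (8.08 FPKM), Bst2 (7.09 FPKM), Ifit2 (6.38 FPKM) and Ifit3 (4.10 FPKM). Zbp1 (0.0684 FPKM), Mx1 (0.0760 FPKM) and Oasl1 (0.144 FPKM) were lowest. Zbp1 and Mx1 did not pass the filter on low counts and are given by their counts only, which leaves 35 genes tested.

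The comparison of HP with LP addressed the diet of the dam among pups given PBS. Irf7, Ifih1, Ifi44, Mx2, Stat2 and, of the OAS family, Oasl1, Oasl2 and Oas1a lay higher in HP, with every HP library above every LP library. The ratio of mean CPM was 3.31 for Irf7, and the log2 fold change estimated by edgeR, called the estimate from here on, was 1.84 for Ifi44, 1.19 for Ifih1 and 0.83 for Mx2. The edgeR quasi-likelihood test with Benjamini-Hochberg adjustment over all 17546 genes called none of the 35 genes, where it called 2 of all genes (0.0114%). At an unadjusted p under 0.05, 13 of the 35 were higher in HP, against 3.12% of all genes, and 0 were lower, against 3.0% of all genes. Of the 35, 31 had a higher estimate in HP, against 49.1% of all genes, and the median log2 fold change was 0.63, against -0.002 over all genes. Over all 37, with no filter on low counts, that median was 0.62. Every HP library was above every LP library for 17 of the 37 genes, against 5.93% of all genes tested, and below for 0, against 5.83%. The 37 genes often moved together from library to library, as given below, so these counts do not come from independent genes. They were also chosen with earlier results of these data known. DESeq2 called Irf7 among the 37 (adjusted p = 0.000564), where it called 32 of the 22198 genes to which it gave an adjusted p (0.144%). In bulk tissue, a change in the number of cells that express a gene cannot be told apart from a change in RNA per cell.

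**Figure D1:**
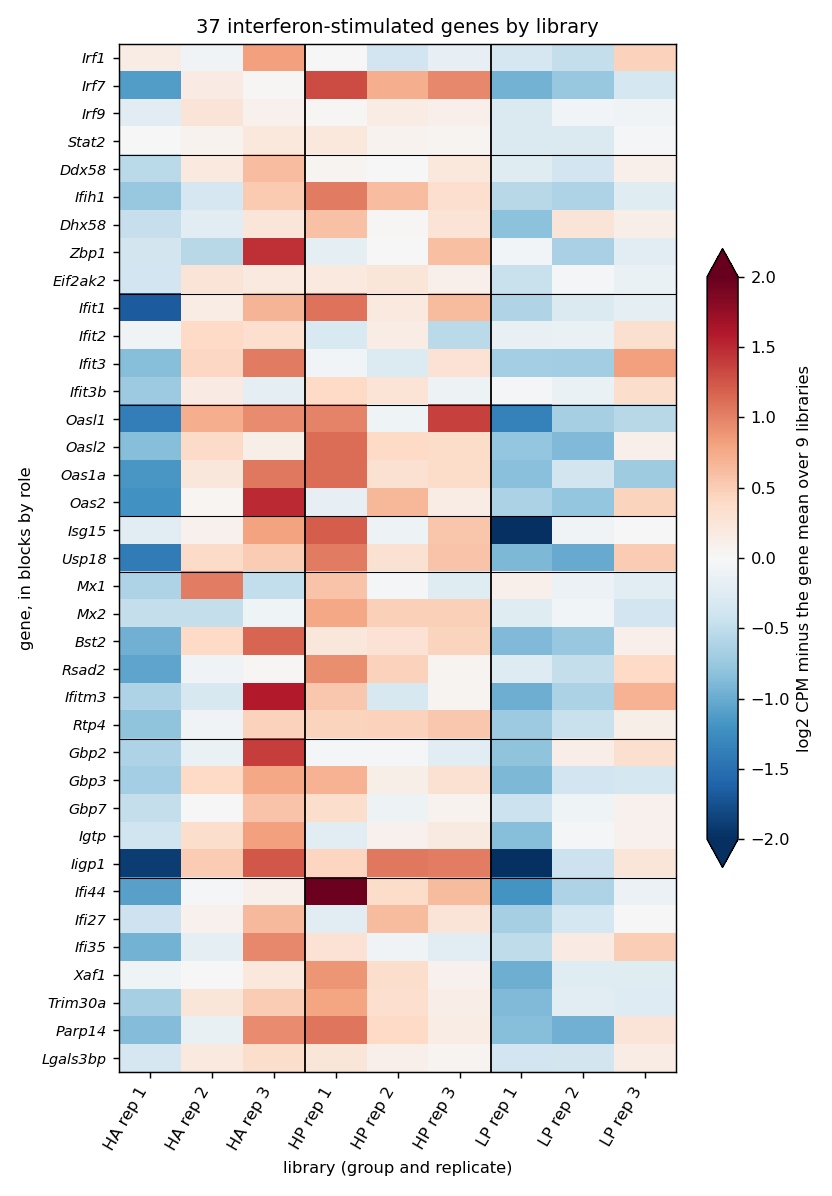
The map shows, for each of the 37 genes (rows, by role) and each library (columns, HA, HP and LP replicates 1 to 3), the log2 CPM minus the gene's mean over the 9 libraries. HA replicate 1 is below the mean for most genes, HA replicate 3 is above it for most, and HP libraries lie higher than LP replicates 1 and 2.

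Among the transcription factors, Irf7 (ENSMUSG00000025498, chromosome 7, 141262706 to 141266481, GRCm38) encodes the regulator that amplifies type I interferon production. It had 30, 65 and 59 counts in HA replicates 1 to 3, 140, 100 and 118 in HP, and 32, 38 and 45 in LP. Every HP library was above all 6 others, and HA and LP overlapped. Irf7 averaged 2.67 ± 1.13 CPM in HA, 6.38 ± 1.32 CPM in HP and 1.93 ± 0.444 CPM in LP (SD, n = 3 each). Its log2 fold change in HP against LP was 1.73 (SE 0.325), with an unadjusted p of 0.000329 and an adjusted p of 0.324 (edgeR). With all genes tested and no filter on low counts, the adjusted p of edgeR was 0.00178. A stretch of 45 bases, 1.19% of its exon length, overlaps Phrf1 on the other strand, and reads there cannot be told apart without strand.

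Stat2 (chromosome 10, 128270559 to 128292849) encodes the STAT of the type I complex. It had 432, 385 and 426 counts in HA, 409, 399 and 393 in HP, and 329, 338 and 357 in LP. Both HA and HP lay wholly above LP. The log2 fold change was 0.32 (SE 0.10, adjusted p = 0.727, edgeR) in HP against LP and 0.30 (SE 0.10, adjusted p = 0.697) in HA against LP. Without LP replicates 1 and 2 these were 0.15 and 0.13. Irf9, the DNA-binding partner of that complex, had 297 to 356 counts in HA, 290 to 342 in HP and 268 to 322 in LP. In CPM every HP library of Irf9 was above every LP library, by an estimate of 0.23 (SE 0.12, adjusted p = 0.843, edgeR). Irf1, a factor strongly induced by interferon gamma, had 95 to 177 counts in HA, 78 to 96 in HP and 80 to 137 in LP, and its estimate was lower in HP than in LP (-0.11, SE 0.29).

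Of the sensors, Ifih1 (chromosome 2, 62595798 to 62646255) encodes MDA5, which recognises long double-stranded RNA. It had 39, 46 and 85 counts in HA, 117, 93 and 76 in HP, and 43, 42 and 49 in LP. HP lay wholly above LP, while HA replicate 3 reached into the range of HP. In HP against LP the estimate was 1.19 (SE 0.33, unadjusted p = 0.00438, adjusted p = 0.665, edgeR). Eif2ak2 encodes PKR, a kinase that stops translation when it binds double-stranded RNA. It had 198, 268 and 258 counts in HA, 247, 272 and 245 in HP, and 179, 246 and 203 in LP. Once scaled to CPM, HP was above LP in every library, with an estimate of 0.38 (SE 0.17, adjusted p = 0.816, edgeR). Ddx58, which encodes the RNA sensor RIG-I, had 98 to 192 counts in HA, 123 to 146 in HP and 106 to 132 in LP. Dhx58, its relative LGP2, had 21 to 31 counts in HA, 27 to 38 in HP and 15 to 35 in LP, and both genes overlapped between all groups. Zbp1, a sensor of nucleic acids in the Z form, had 2 to 14 counts in HA, 3 to 7 in HP and 2 to 4 in LP.

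The IFIT genes lie side by side on chromosome 19 and encode proteins that bind foreign RNA and block its translation. Ifit1 (34640871 to 34650009) had 13, 44 and 65 counts in HA, 83, 47 and 64 in HP, and 28, 36 and 34 in LP. HP lay above LP in every library and HA ran from below LP into the range of HP, with an estimate in HP against LP of 1.08 (SE 0.49, adjusted p = 0.816, edgeR). Ifit2 had 507, 604 and 584 counts in HA, 358, 528 and 323 in HP, and 455, 472 and 569 in LP. Ifit2 thus had a lower estimate in HP than in LP (-0.22, SE 0.20), and it overlapped between the groups. Ifit3 had 77, 163 and 252 counts in HA, 112, 103 and 152 in HP, and 82, 84 and 214 in LP. Its highest libraries were HA replicate 3 and LP replicate 3, the libraries highest in meningeal markers, and whether those cells take part was not tested. Ifit3b had 41 to 67 counts in HA, 57 to 76 in HP and 61 to 76 in LP. Counts of Ifit3 and Ifit3b are uncertain, since 41.1% of the 75-base words of Ifit3 transcripts also occur in Ifit3b.

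The OAS enzymes make oligoadenylates that activate an RNase, and the family also holds OAS-like relatives. Oasl2 (chromosome 5, 114896936 to 114912234) had 51, 106 and 88 counts in HA, 170, 110 and 107 in HP, and 51, 48 and 86 in LP. HP was above LP throughout, and HA replicate 1 stood at the level of the lower LP libraries. In HP against LP the estimate was 1.15 (SE 0.37, unadjusted p = 0.0112, adjusted p = 0.758, edgeR). Oasl1, known in mouse to restrain translation of Irf7, had only 1, 10 and 12 counts in HA, 12, 5 and 17 in HP, and 1, 3 and 3 in LP. Its log2 fold change of 2.31 in HP against LP had an SE of 0.84 (adjusted p = 0.792, edgeR), and it was left out by a filter on a mean of at least 10 counts. Oas1a had 8, 21 and 39 counts in HA, 39, 23 and 24 in HP, and 10, 15 and 10 in LP. HP was above LP in each library (1.40, SE 0.54, adjusted p = 0.807, edgeR), with a limit that 47.6% of the 75-base words of Oas1a occur in its neighbour Oas1g. Oas2 had 7 to 50 counts in HA, 14 to 28 in HP and 10 to 23 in LP, and the groups overlapped.

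In the ISG15 system, Isg15 (chromosome 4, 156199424 to 156200818) encodes a ubiquitin-like protein that is attached to other proteins. It had 37, 40 and 67 counts in HA, 86, 36 and 57 in HP, and 7, 40 and 37 in LP. LP replicate 1 was far below the others, HP and LP overlapped, and the log2 fold change of 1.19 had an SE of 0.55 (adjusted p = 0.816, edgeR). Usp18, whose product removes ISG15 and dampens the type I receptor, had 12 to 44 counts in HA, 39 to 62 in HP and 16 to 44 in LP.

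Among inhibitors of viruses at membranes and during assembly, Mx2 (chromosome 16, 97535308 to 97560900) is a dynamin-like GTPase gene that the deposited table lists as a polymorphic pseudogene. It had 35, 30 and 40 counts in HA, 71, 62 and 61 in HP, and 39, 46 and 32 in LP. Every HP library was above all HA and all LP libraries, with little spread inside each group. Mx2 averaged 1.78 ± 0.302 CPM in HA, 3.45 ± 0.433 CPM in HP and 1.93 ± 0.231 CPM in LP (SD, n = 3 each). In HP against LP the estimate was 0.83 (SE 0.20, unadjusted p = 0.00183, adjusted p = 0.534, edgeR). Its relative Mx1 had 3 to 12 counts in HA, 4 to 8 in HP and 4 to 6 in LP, too few to be tested.

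Bst2 encodes tetherin, which holds budding virus at the cell surface. It had 63, 142 and 245 counts in HA, 121, 136 and 151 in HP, and 63, 71 and 115 in LP. The HP libraries were close together and in CPM lay above LP, whereas HA ran from just below LP to well above HP (HP against LP 0.79, SE 0.45, adjusted p = 0.858, edgeR). Rsad2 encodes viperin, which makes a nucleotide that stops viral RNA synthesis. It had 13, 24 and 26 counts in HA, 48, 37 and 27 in HP, and 23, 20 and 34 in LP. HP and LP overlapped for Rsad2 (0.63, SE 0.38, adjusted p = 0.872, edgeR). Rtp4, a chaperone of membrane receptors, had 39, 57 and 83 counts in HA, 79, 86 and 90 in HP, and 39, 49 and 65 in LP. HP was above LP in every library, with an estimate of 0.82 (SE 0.31, adjusted p = 0.807, edgeR).

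Ifitm3, which blocks fusion of entering virus, behaved otherwise. It had 143, 153 and 579 counts in HA, 266, 157 and 202 in HP, and 105, 138 and 307 in LP. The highest libraries were HA replicate 3 and LP replicate 3, as for the meningeal markers given above, and their part in the level of Ifitm3 was not tested. The log2 fold change in HP against LP was 0.26 (SE 0.60, adjusted p = 0.967, edgeR). HA replicate 3 and LP replicate 3 were the 2 highest libraries for 5 of the 37 genes (13.5%), against 8.55% of all genes tested, which is not far apart for a list of this size. The 5 were Irf1, Ifit3, Ifitm3, Gbp2 and Ifi35.

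The interferon-inducible GTPases act on vacuoles and on intracellular microbes. Gbp3 (chromosome 3, 142560026 to 142573209) had 60, 111 and 145 counts in HA, 131, 94 and 106 in HP, and 48, 72 and 65 in LP. HP lay above LP in each library, with an estimate of 0.94 (SE 0.34, adjusted p = 0.792, edgeR). Gbp7 had 111, 133 and 201 counts in HA, 165, 129 and 144 in HP, and 108, 142 and 141 in LP. Its groups overlapped (HP against LP 0.26, SE 0.25, adjusted p = 0.912, edgeR). Gbp2 had 57 to 203 counts in HA, 67 to 76 in HP and 47 to 95 in LP, and Igtp had 43 to 89 in HA, 40 to 57 in HP and 29 to 54 in LP. Iigp1 had 3 to 38 counts in HA, 20 to 34 in HP and 2 to 18 in LP, with every HP library above every LP library.

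Of the other induced genes, Ifi44 (chromosome 3, 151730922 to 151749960), a gene of the type I response, had 15, 29 and 32 counts in HA, 116, 40 and 48 in HP, and 13, 21 and 27 in LP. All HP libraries were above all HA and LP libraries, and HP replicate 1 was far above the rest. The log2 fold change in HP against LP was 1.84 (SE 0.50, unadjusted p = 0.00436, adjusted p = 0.665, edgeR), and the adjusted p was 0.0366 with no filter. Without HP replicate 1 the estimate was 1.16. Xaf1, which antagonises an inhibitor of apoptosis, had 39, 36 and 42 counts in HA, 65, 48 and 39 in HP, and 19, 34 and 30 in LP. In CPM both HA and HP were above LP in every library, with an estimate of 0.97 (SE 0.29, adjusted p = 0.712, edgeR) in HP against LP and 0.52 (SE 0.29, adjusted p = 0.813) in HA against LP. Trim30a, known in mouse to restrain Toll-like receptor signalling, had 35, 58 and 70 counts in HA, 82, 64 and 55 in HP, and 28, 47 and 40 in LP. HP was again above LP throughout (0.90, SE 0.33, adjusted p = 0.792, edgeR).

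Ifi27 and Lgals3bp, with more counts, had smaller estimates. Ifi27, an interferon-alpha-inducible gene, had 401, 488 and 723 counts in HA, 382, 735 and 559 in HP, and 316, 407 and 460 in LP. HP and LP overlapped, with an estimate of 0.58 (SE 0.28, adjusted p = 0.829, edgeR). Lgals3bp, which encodes a secreted galectin-binding glycoprotein, had 390, 486 and 545 counts in HA, 482, 469 and 452 in HP, and 355, 369 and 469 in LP. The groups overlapped, and the log2 fold change in HP against LP was 0.32 (SE 0.19, adjusted p = 0.864, edgeR). Ifi35, whose product binds its relative NMI, had 26 to 89 counts in HA, 39 to 53 in HP and 34 to 63 in LP, and Parp14, an ADP-ribosyltransferase gene, had 40 to 126 in HA, 73 to 132 in HP and 36 to 77 in LP.

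**Figure D2:**
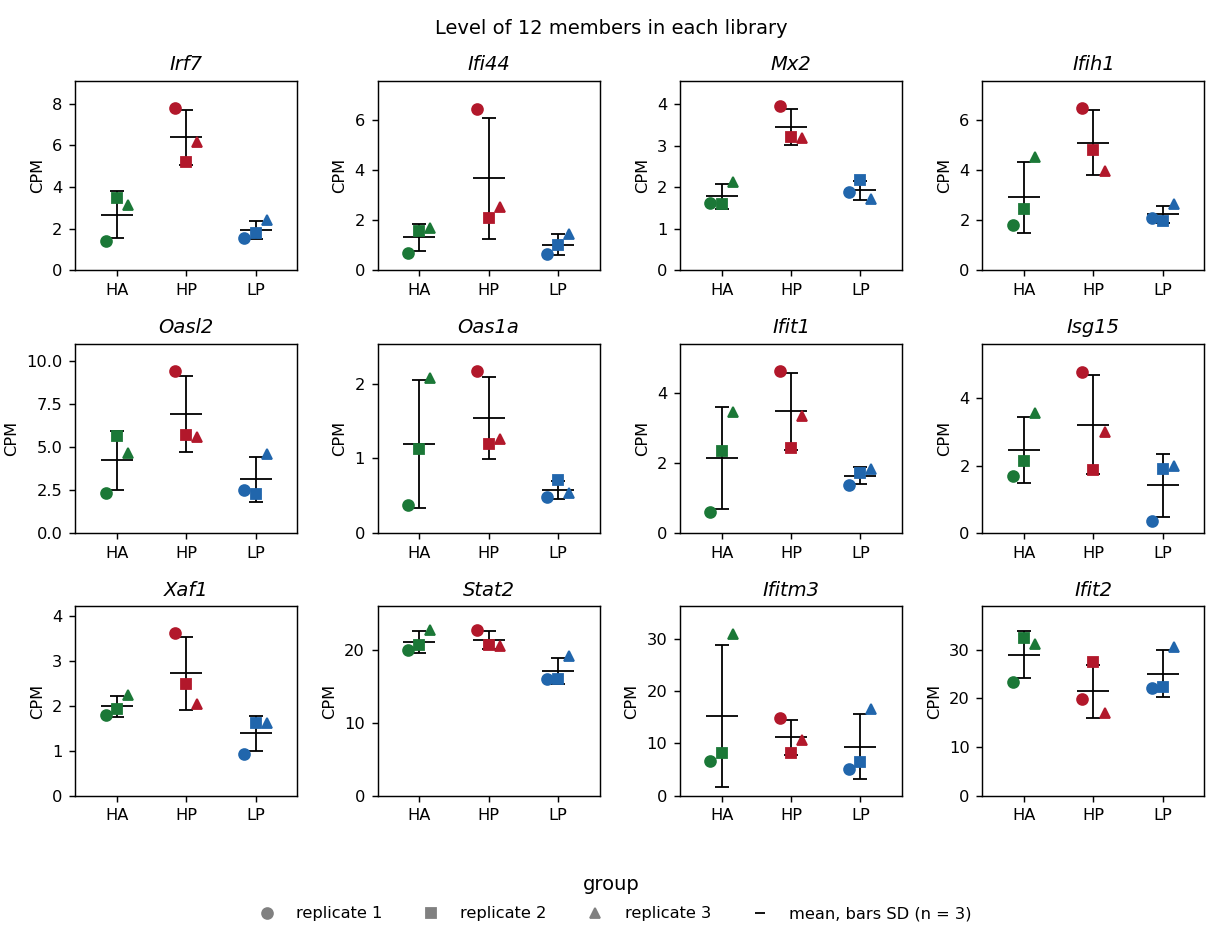
Points show CPM of selected genes in each library, with HA, HP and LP from left to right, and bars show the group mean and SD (n = 3). For Irf7 and Mx2 the HP libraries stand clear of HA and LP, while for Ifitm3 a single HA library lies far above the rest.

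Whether HP stood above LP depended on which LP library was read. LP replicate 3 was the highest of the LP libraries for 29 of the 37 genes, against 33.8% of all genes. Every HP library was above LP replicates 1 and 2 for 26 of the 37 genes, against 11.0% of all genes, and above LP replicate 3 for 18, against 29.6% of all genes. LP replicate 3 carries the same title code as LP replicate 2. Without LP replicate 3 the median log2 fold change was 0.95, over 35 genes. Without LP replicates 1 and 2 it was 0.26, over all 37 genes, since Zbp1 and Mx1 then passed the filter. That fit leaves a single LP library, assumed to vary like the others. LP replicates 1 and 2 were the libraries highest in striatal markers, and the part of tissue makeup in these differences was not tested.

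The comparison of HA with HP addressed the 4-PBA injections under the HFHS diet. Irf7, Mx2, Rsad2 and Ifi44 lay lower in HA, with every HA library below every HP library, which was the case for 4 of the 37 genes, against 5.89% of all genes, and above for 0, against 5.92%. EdgeR called none of the 35 genes, where it called 2 of all genes (0.0114%). At an unadjusted p under 0.05, 5 of the 35 were lower in HA, against 2.42% of all genes, and 0 were higher, against 3.0%. A higher estimate in HA was found for 10 of the 35, against 50.9% of all genes, and the median log2 fold change was -0.35, against 0.003 over all genes. Over all 37 with no filter the median was -0.13, and it was -0.24 over the 34 with a mean of at least 10 counts. DESeq2 gave 0 calls among the 34 members with an adjusted p, against 0.0479% of all genes. Every HP library was above every HA and every LP library for Irf7, Mx2 and Ifi44, 3 of the 37 genes, against 1.47% of all genes. HP libraries serve in both this comparison and that with LP, so a high HP value counts in each.

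Mx2 had the smallest p of the 35, with an estimate of -0.95 (SE 0.20, unadjusted p = 0.000753, adjusted p = 0.840, edgeR). For Irf7 the log2 fold change was -1.26 (SE 0.317, unadjusted p = 0.00253, adjusted p = 0.840). For Ifi44 it was -1.49 (SE 0.49, unadjusted p = 0.0127, adjusted p = 0.840), and -0.81 without HP replicate 1. For Rsad2 it was -0.88 (SE 0.38, unadjusted p = 0.0439, adjusted p = 0.840), and -0.58 without HA replicate 1. Ifih1 had -0.80 (SE 0.32, unadjusted p = 0.0303, adjusted p = 0.840), with HA replicate 3 inside the HP range, and -1.26 without that library. The estimate for Ifih1 was -0.55 without HA replicate 1 and -0.60 without HP replicate 1. HA and HP share their title codes, and with the code as a term the log2 fold change was -0.96 for Mx2 and -1.27 for Irf7, both with an adjusted p of 0.748.

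The HA libraries were spread widely. HA replicate 1 was the lowest of the HA libraries for 34 of the 37 genes, against 32.9% of all genes, and HA replicate 3 the highest for 30, against 36.9%. HA replicate 1 was below every HP library for 35 of the 37 genes (all except Irf1 and Ifit2), against 25.3% of all genes. HA replicate 2 was below every HP library for 12, against 27.2%, and HA replicate 3 for 7, against 29.1%. HA replicate 3 was above every HP library for 16 of the 37, against 30.6% of all genes. Without HA replicate 1 the median log2 fold change in HA against HP was 0.05, without HP replicate 1 it was -0.12, and without HA replicate 3 it was -0.59. Summed over the 37 genes, the level was 162, 241 and 325 CPM in HA replicates 1 to 3, 268, 248 and 236 CPM in HP, and 151, 174 and 238 CPM in LP.

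**Figure D3:**
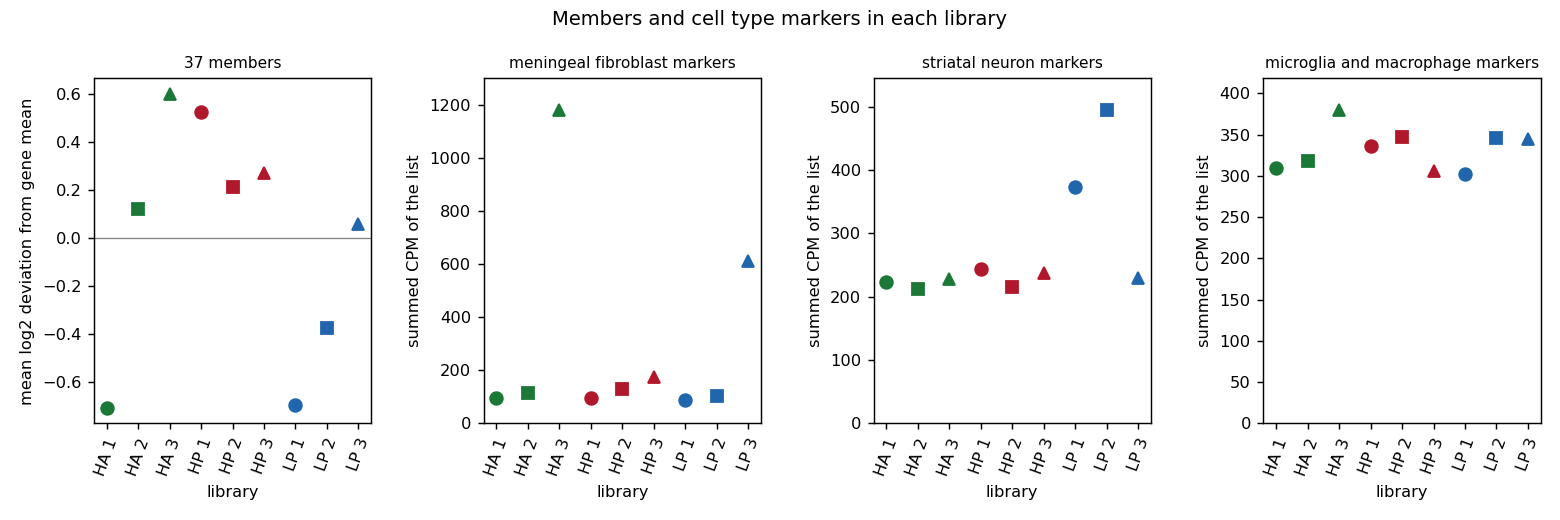
The plots place each library by the mean log2 deviation over the 37 genes and by summed CPM of marker lists, with colours for HA, HP and LP and symbols for the replicate. HA runs from -0.71 in replicate 1 to 0.60 in replicate 3, HP from 0.21 to 0.52 and LP from -0.70 to 0.06.

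On that mean deviation the groups stood at 0.0041 ± 0.661 in HA, 0.335 ± 0.166 in HP and -0.339 ± 0.379 in LP (SD, n = 3 each). HA replicate 3 was also highest in markers of microglia and macrophages, whose 14 genes, with none at 0, summed to 309 to 380 CPM in HA, 305 to 347 CPM in HP and 303 to 345 CPM in LP. The 12 markers of endothelial and mural cells, with none at 0, summed to 524 to 789 CPM in HA, 553 to 587 CPM in HP and 506 to 586 CPM in LP, again with HA replicate 3 highest. The genes of that list did not rise alike. Acta2 stood at 8.75, 6.58 and 116 CPM in HA replicates 1 to 3, and Kcnj8 at 5.25, 7.11 and 4.26 CPM. Mrc1, a marker of border macrophages, stood at 5.06, 4.44 and 21.7 CPM in HA, 5.73, 4.67 and 9.15 CPM in HP, and 3.80, 5.21 and 19.2 CPM in LP. The 12 markers of blood, lymphocytes and plasmacytoid cells summed to 27.5, 32.7 and 97.5 CPM in HA, 65.7, 28.6 and 23.8 CPM in HP, and 24.9, 82.1 and 70.6 CPM in LP, with none at 0 in every library. Most of that sum was Hba-a1, a hemoglobin gene, while the T cell genes Cd3e and Cd8a stood at 0 to 0.161 CPM. Of the same list, Cd4 stood at 0.0921 to 1.23 CPM and Siglech at 6.4 to 10.6 CPM. HA replicate 3 and HP replicate 1, the libraries highest in the 37 genes, were the highest of their own groups in these blood markers, while in LP replicate 2 was highest in them and replicate 3 in the 37 genes. The part of any of these cell types in the level of the 37 genes was not tested.

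HA against LP compared the groups that differ in both diet and injection. Every HA library was above every LP library for Stat2 and Xaf1, 2 of the 37 genes, against 5.4% of all genes, and below for 0, against 5.51%. EdgeR called 0 of the 35 genes and 0 of all genes (0.0%), limma-voom called 0 of all genes, and DESeq2 called 27 of all genes, with none among the 37 (0.129% of all genes with an adjusted p). At an unadjusted p under 0.05, Stat2 and Gbp3 were higher in HA, 2 of the 35 against 3.06% of all genes, and 0 were lower, against 3.45%. The log2 fold change of Gbp3 was 0.82 (SE 0.34, adjusted p = 0.756, edgeR), and 0.49 without HA replicate 3. The estimate was higher in HA for 31 of the 35, against 51.9% of all genes, with a median of 0.40, against 0.006 over all genes. Leaving out HA replicate 3 gave a median of 0.12, and leaving out HA replicate 1 gave 0.70. The estimate was 0.46 (SE 0.333, adjusted p = 0.834, edgeR) for Irf7 and -0.12 (SE 0.20, adjusted p = 0.933) for Mx2, and HA overlapped LP for both.

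**Figure D4:**
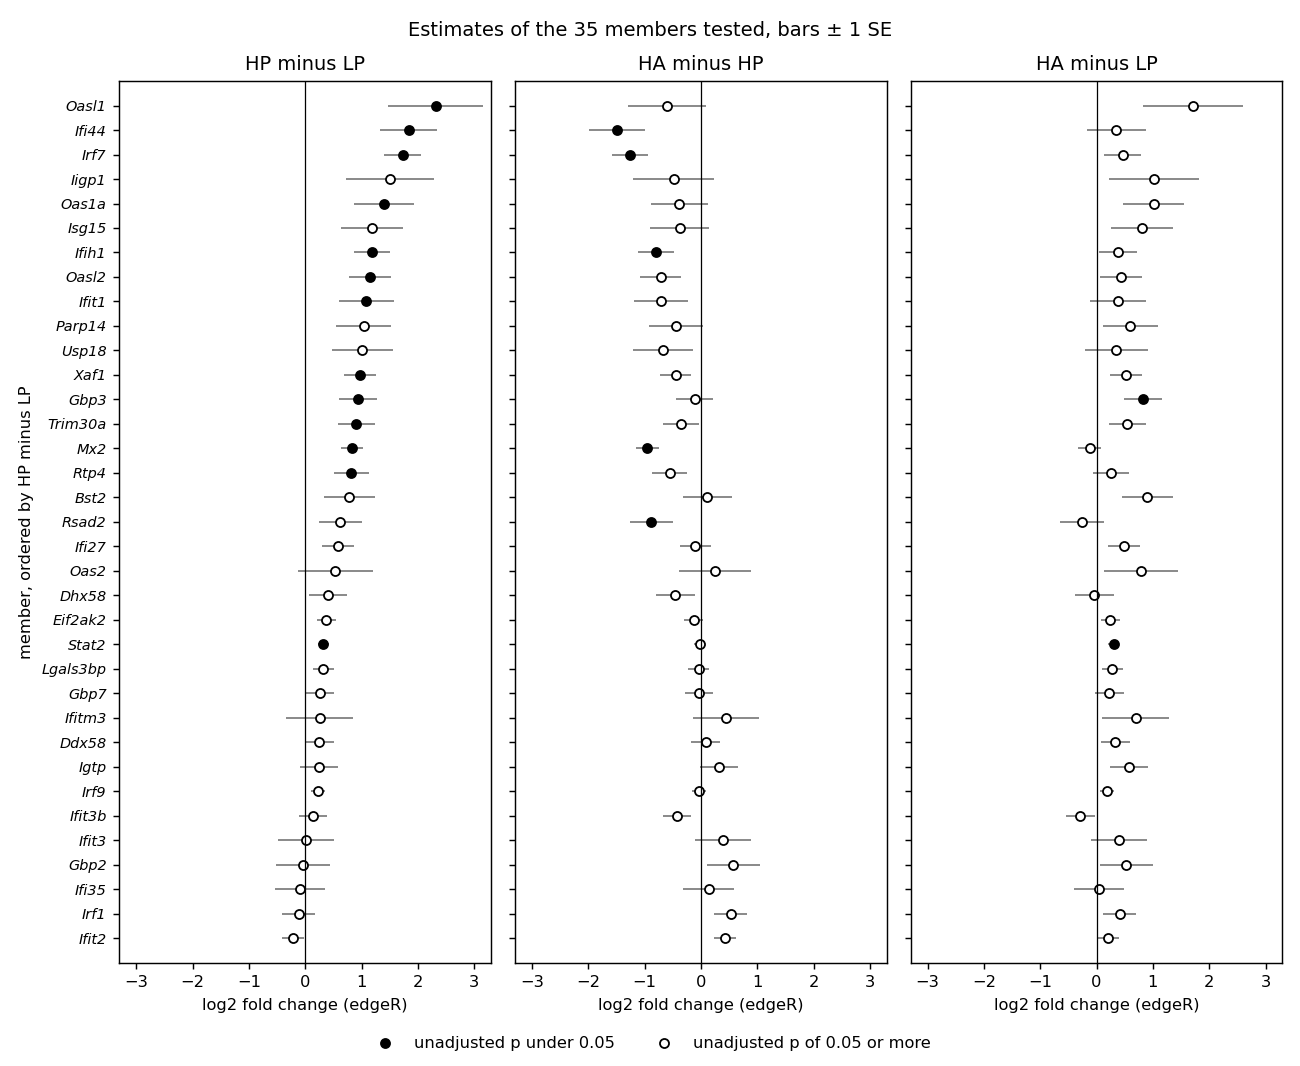
Each panel shows the edgeR log2 fold change and 1 SE of the 35 genes tested, for HP minus LP, HA minus HP and HA minus LP, with filled points at an unadjusted p under 0.05. Most estimates lie above 0 in HP minus LP, and Ifi44, Irf7, Mx2, Rsad2 and Ifih1 are the filled points below 0 in HA minus HP.

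Of the rest of the pathway, 8 of 10 interferon genes listed, Ifnb1 among them, had 0 counts in all 9 libraries, and none passed the filter. No gene of the pathway lists passed the adjusted test of edgeR in any comparison. The 9 receptor and kinase genes had 0 at an unadjusted p under 0.05 in each comparison. Ifnar1, a chain of the type I receptor, averaged 57.98 ± 4.54 CPM in HA, 58.3 ± 2.90 CPM in HP and 57.7 ± 2.31 CPM in LP (SD, n = 3 each). Ifnar1 overlapped between all groups. Ifnar2, the other chain of that receptor, averaged 14.2 ± 1.84 CPM in HA, 14.95 ± 1.01 CPM in HP and 14.8 ± 1.5 CPM in LP. The kinase genes with the smallest p, Jak1, Jak2 and Tyk2, had estimates in HP against LP of 0.06, -0.09 and -0.16, each with an adjusted p of 0.857 or more (edgeR).

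Of the 10 other transcription factors tested, 6 had a higher estimate in HP than in LP, against 49.1% of all genes, with a median of 0.04. Stat3, which serves many cytokines, averaged 97.96 ± 8.36 CPM in HA, 94.07 ± 2.19 CPM in HP and 86.2 ± 1.60 CPM in LP (SD, n = 3 each), with an estimate of 0.18 (SE 0.059, adjusted p = 0.697, edgeR) in HA against LP. Irf3, a factor that acts at the start of the response, had an estimate of 0.03 in HP against LP, Irf4 of -1.28 on 3 to 22 counts, and Irf5 of -0.19. Among 14 genes of sensing and adaptors, with 11 higher estimates in HP than in LP, against 49.1% of all genes, and a median of 0.10, Aim2, a DNA sensor gene, had 0.60 in HP against LP, Zcchc3 had -0.15, and Traf3, an adaptor, had 0.06. The 10 negative regulators had a median of -0.05 in HP against LP and 0.04 in HA against HP. Ptpn11, a phosphatase gene, had an estimate of -0.10 (SE 0.035, adjusted p = 0.840, edgeR) in HA against HP, and Socs3 and Pias1 had 0.11 and -0.07 in HP against LP.

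A further 55 interferon-stimulated genes were listed, of which 42 were tested. In HP against LP 31 of these 42 had a higher estimate, against 49.1% of all genes, with a median of 0.17. At an unadjusted p under 0.05, 6 were higher, against 3.12% of all genes, and 0 lower, against 3.0%. In HA against HP 19 of the 42 had a higher estimate, against 50.9% of all genes, with a median of -0.04, and 3 were higher and 0 lower at an unadjusted p under 0.05, against 3.0% and 2.42% of all genes. This differs from the 37 genes, of which 0 were higher and 5 lower in that comparison; the difference between the lists was not tested. In HA against LP 32 of the 42 had a higher estimate, against 51.9% of all genes, with a median of 0.23, and 3 were higher and 0 lower, against 3.06% and 3.45% of all genes. Sp100, a gene of nuclear bodies, had 29, 49 and 84 counts in HA, 91, 63 and 71 in HP, and 18, 26 and 31 in LP. HP lay wholly above LP and HA spanned both, with an estimate of 1.67 (SE 0.41, unadjusted p = 0.00223, adjusted p = 0.566, edgeR). For Slfn8, a schlafen gene, the estimate in HP against LP was 1.03 (SE 0.36, adjusted p = 0.782, edgeR). The 16 genes of antigen presentation and the immunoproteasome had medians of 0.004 in HP against LP, 0.31 in HA against HP and 0.22 in HA against LP. Over all genes the medians were -0.002, 0.003 and 0.006. Summed, the 16 genes stood at 213, 254 and 369 CPM in HA replicates 1 to 3, 234, 246 and 265 CPM in HP, and 224, 220 and 297 CPM in LP. HA replicate 1 thus lay below every HP library, and HA replicate 3 was highest. Psmb10, an immunoproteasome subunit, had an estimate of 0.16 in HP against LP. H2-T23 had 1.19 in HA against LP, on 9, 12 and 34 counts in HA and 8, 12 and 5 in LP. Ly6e of the further list had 0.21 (SE 0.055, adjusted p = 0.645, edgeR) in HA against LP. B2m, the light chain of class I molecules, had 898, 1032 and 1760 counts in HA, 870, 994 and 994 in HP, and 807, 999 and 1138 in LP, with HA replicate 3 and LP replicate 3 highest.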

How the data were processed

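RNA of 9 hypothalamus libraries was measured. The authors deposited whole-number read counts per gene, not normalized, and FPKM values (counts per length and library size) made from them. Recomputing FPKM from the counts gave ratios of 0.981 to 1.01 over 122820 values. Per the submitters' processing notes the tools were DESeq2 1.16.1, HISAT2 2.0.5 and featureCounts 1.5.0-p3 and the build was mm9. However, 53585 of 54495 identifiers (98.3%) have the start and end of GENCODE M21, so coordinates are read as GRCm38. The NEBNext kit is not described as stranded.

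Counts of all 9 libraries were fitted with edgeR 4.0.16 (R 4.3.3; quasi-likelihood F test, group as the only term, filterByExpr, TMM scaling), which tested 17546 genes. Tests were two-sided with Benjamini-Hochberg adjustment over all genes tested and a threshold of 0.05. The SE of a log2 fold change is its size over the square root of F. CPM uses TMM-scaled library sizes, and log2 CPM a prior count of 2. DESeq2 1.42.0, limma 3.58.1 (voom), other scaling and filters, other designs and left-out libraries were alternatives. The script was tested on simulated data.

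Members and lists were chosen with earlier results of these data known. A member is given in every library where its unadjusted p is under 0.05 in any comparison, where it is among the 6 of highest mean FPKM, or where it is the highest of its role by mean CPM, which selects 23. The other 14 are given by ranges. From each list of other pathway genes the 3 of smallest p are named, and Ifnar1, Ifnar2, Irf3 and Ifnb1 always. A result that the rule also selects is not reported here. Replicate numbers are shared between groups, but the labels give no shared animal or litter. Same-numbered libraries deviated together with correlations of 0.256, 0.144 and 0.486 between HA and LP. For replicates 1 to 3 the values were 0.1375, -0.028 and 0.159 between HP and LP. Between HA and HP they were 0.082, 0.004 and 0.118. Libraries with different numbers were as close in places (HA replicate 2 with LP replicate 1 at 0.251, HA replicate 1 with LP replicate 2 at 0.182). All reported values come from the fit without a replicate block, and the block was an alternative in each comparison. No pair of libraries within a group agreed within sampling noise (chi-square per degree of freedom at least 5.03).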

Additional observations from a re-analysis of the deposited data

How the results depend on the processing

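Single genes were followed under the alternatives only for the 20 results with an unadjusted p under 0.05 in the edgeR fit to all libraries. Of their 383 values, 380 kept their direction and side of the threshold, 3 passed it and 0 reversed. The 3 were Irf7 with DESeq2 and with no filter, and Ifi44 with no filter, all in HP against LP. These values do not speak for the members not selected in this way. In HA against HP, 10 of the 35 members had a higher estimate. That number was 19 once HA replicate 1 was dropped, and 2 once HA replicate 3 was dropped instead. The number of genes called in HP against LP was 2, and it was 32 with DESeq2, 53 with no filter, 1 with library totals, 4 in the fit to the compared groups only, 4 with the replicate block, 37 without LP replicate 3 and HA replicate 3 together, and 1 to 21 without single libraries (21 without LP replicate 3, 6 without HA replicate 3 or HP replicate 3). Among the 37 genes the number called was 0, and it was 1 with DESeq2 and 2 with no filter. In HA against HP 2 genes were called, with 8 by DESeq2, 5 with no filter, 10 without LP replicate 3 and HA replicate 3 together and 1 to 9 without single libraries. In HA against LP 0 were called, with 27 by DESeq2, 41 with no filter, 1 in the fit to the compared groups, 23 without LP replicate 3 and HA replicate 3 together and 0 to 14 without single libraries. The median in HP against LP was 0.63, and 0.53 to 0.95 without single libraries. Leaving out LP replicate 3 and HA replicate 3 together gave 0.95. Leaving out LP replicates 1 and 2 together gave 0.26, over 37 genes in place of 35. In HA against HP the range without single libraries was -0.59 to 0.05, the upper end without HA replicate 1, and in HA against LP 0.12 to 0.70. With the replicate block the median was 0.66 in HP against LP, -0.41 in HA against HP and 0.42 in HA against LP, and the block changed no call of a member, with 0 genes called in HA against LP. The causes of these shifts were not tested. Low counts limit the precision of Oasl1, Iigp1, Oas2, Zbp1 and Mx1.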
